A study of Mus musculus with 4 samples.

Results

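Aminoacyl-tRNA synthetases are the enzymes that join each amino acid to its transfer RNA before the ribosome can use it. The genes described here are 36 synthetases and 3 scaffold proteins of the multisynthetase complex, taken from the deposited gene table by symbol. All 39 symbols were found, each on 1 row, among 50600 genes. They comprise 19 enzymes of the cytosol, 2 enzymes that 1 gene supplies to both cytosol and mitochondria (Gars and Kars), 15 enzymes of mitochondria, and the scaffold genes Aimp1, Aimp2 and Eef1e1.

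RNA was sequenced from Py8119 cells, a line from a mouse mammary tumour on the C57BL/6 background, labelled mesenchymal-like. The groups were cells overexpressing Mtss1, a gene for a membrane-bending and actin-binding scaffold protein, with 2 libraries (Mtss1 overexpression 1 and 2), and control cells titled hygro, with 2 libraries (hygro control 1 and 2). All were grown in IMDM medium with serum and without treatment, and RNA was taken with Trizol and read as paired ends of 150 bases. The labels do not say whether a population was 1 clone or a pool, what promoter drove Mtss1, or whether both libraries of a group had their own culture. The p-values therefore cover the spread between these 4 libraries alone, and that spread may be technical. For each gene the test drew this spread toward the trend over all tested genes. In bulk RNA, fewer cells of a type and less RNA per cell cannot be told apart.

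In the cytosol a synthetase recognises its amino acid and its tRNA, spends ATP and releases the charged tRNA to elongation factor EF1A. Several cytosolic enzymes are held in a multisynthetase complex by the scaffold proteins AIMP1, AIMP2 and AIMP3 (the product of Eef1e1), while the others act alone or in smaller assemblies. Mitochondria translate their own few messenger RNAs with a separate set of synthetases, encoded in the nucleus and imported. When amino acids run short, uncharged tRNA activates the kinase GCN2, and the transcription factor ATF4 then raises many cytosolic synthetase genes together with genes for amino acid transport and synthesis.

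Values are CPM, read counts corrected for the size of each library. The steps between values gave 15594209 and 16656638 reads in the Mtss1 overexpression libraries and 20617788 and 22081639 in the hygro control libraries. Every one of the 39 genes passed the filter of at least 1 CPM in at least 2 libraries, and the lowest value was 6.30 CPM, for Ears2 in Mtss1 overexpression 1. Mtss1 itself had 118 and 119 CPM in Mtss1 overexpression libraries, against 54.5 and 50.5 CPM in hygro control libraries. Of 12510 genes tested with limma, 66.1% passed an adjusted p of 0.05, with 34.2% lower and 31.9% higher, so a call alone is common in this comparison. Of the 6 mammary epithelial markers Krt8 and Krt18 were present, with a summed level of 601 and 603 CPM in Mtss1 overexpression libraries, against 849 and 893 CPM in hygro control libraries, while Epcam and Krt5 were at 0 and Cdh1 and Krt14 did not exceed 0.119 CPM. All 4 mesenchymal markers were present. Of 7 immune cell markers 5 stayed under 0.1 CPM, with Cd3e and Itgam at 0, but their summed level was 96.1 and 95.9 CPM in Mtss1 overexpression libraries, against 22.1 and 20.8 CPM in hygro control libraries, mostly Cd68. The 6 endothelial and fat cell markers summed to 84.2 and 84.5 CPM in Mtss1 overexpression libraries, against 38.9 and 35.3 CPM in hygro control libraries, mostly Fabp4, with Adipoq at 0. The part of these markers in the results below was not tested.

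Cytosolic synthetase genes were lower with Mtss1 overexpression, while mitochondrial synthetase genes went both ways. The test called 21 of the 39 genes lower and 4 higher, and left 14 uncalled. Among the 19 cytosolic enzymes 15 fell and 0 rose, against 34.2% of all tested genes lower and 31.9% higher. Their median log2 fold change was -0.40, against -0.01 over all genes tested. The 15 mitochondrial enzymes divided into 4 that fell, 3 that rose and 8 that did not pass, with a median of -0.07. The 4 libraries separated by group, with no overlap, for 27 of the 39 genes in the lower direction and 8 in the higher, where all tested genes gave 41.9% and 39.7%. Each fold change was taken on the log2(CPM + 1) scale, which understates the change of low genes, and adjusted p-values are those of limma over all tested genes. The difference between the cytosolic and mitochondrial classes is given as medians and counts and was not tested as a set.

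**Figure D1:**
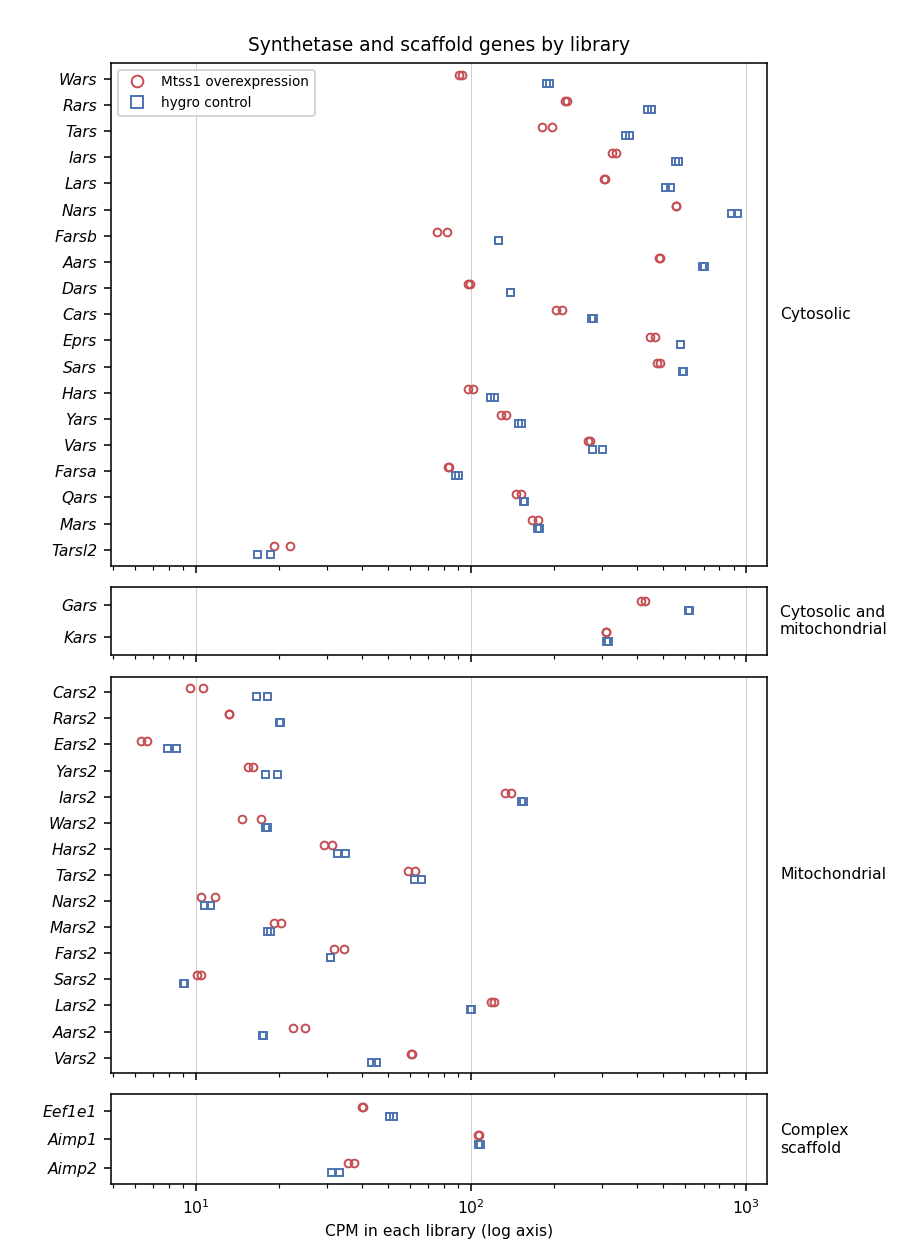
CPM of each of the 39 genes in each library on a log axis, with Mtss1 overexpression as circles and hygro control as squares, grouped by where the enzyme works and ordered by fold change. The circles lie left of the squares for most cytosolic genes, from Wars (90.1 and 92.4 against 193 and 187 CPM) down to Vars, and on either side for mitochondrial genes.

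The multisynthetase complex holds 8 of the enzymes. Of these, 5 fell (Rars, Iars, Lars, Dars and Eprs) and 3 did not pass (Qars, Mars and Kars), which is 62.5% lower against 34.2% of all tested genes. Their fold changes ran from -1.01 to -0.01 on the log2 scale while their proteins belong to 1 particle. Rars, the arginyl-tRNA synthetase gene (ENSMUSG00000018848, mm10 chromosome 11, 35808381 to 35834506, minus strand), had 219 and 223 CPM in Mtss1 overexpression libraries, against 452 and 438 CPM in hygro control libraries. Both overexpression libraries lay at about the same level, far under both controls. The log2 fold change was -1.01 ± 0.04 (SE, limma adjusted p = 1.1e-16), and the ratio of means was 0.497.

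Iars, the isoleucyl-tRNA synthetase gene (chromosome 13, 49682100 to 49734267, plus strand), had 325 and 336 CPM in Mtss1 overexpression libraries, against 563 and 551 CPM in hygro control libraries. Lars, whose enzyme charges leucine and also takes part in leucine sensing by mTORC1, had 308 and 305 CPM with Mtss1 overexpression, against 527 and 507 CPM in hygro control libraries. The groups did not overlap for either gene, and each fell by 0.75 on the log2 scale (SE 0.03 for both, limma adjusted p = 1.2e-14 for Iars and 1.3e-14 for Lars). Eprs, a fused glutamyl- and prolyl-tRNA synthetase, had 448 and 467 CPM in Mtss1 overexpression libraries, against 573 and 577 CPM in hygro control libraries, and Dars, for aspartate, had 99.1 and 97.6 against 139 and 138 CPM. Their falls were smaller, with log2 fold changes of -0.33 ± 0.03 for Eprs and -0.49 ± 0.04 for Dars (SE, limma adjusted p = 1.4e-08 and 8.2e-10).

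Kars, the lysyl-tRNA synthetase gene, which supplies both compartments, stood at nearly the same level in the 4 libraries, with 308.8 and 308.9 CPM in Mtss1 overexpression libraries and 314 and 309 CPM in hygro control libraries. The 95% interval of its log2 fold change ran from -0.08 to 0.06. Mars, for methionine, had 166 and 175 CPM with Mtss1 overexpression and 174 and 176 CPM in hygro control libraries, an overlap of the groups, with an interval of -0.12 to 0.05. Its exons share 68 bases with those of Ddit3 on the opposite strand, and whether the counting used strand is not stated in the labels, so reads of that stretch may belong to either gene. Qars, for glutamine, had 146 and 152 CPM with Mtss1 overexpression and 155 and 154 CPM in hygro control libraries, with an interval of -0.14 to 0.03. Within the complex, the CPM of Rars was 0.709 and 0.722 times that of Kars in Mtss1 overexpression libraries, against 1.44 and 1.42 times in hygro control libraries, a ratio with no correction for length that scaling between libraries cannot move. With 2 libraries a group, the smallest p an exact two-sided permutation test of such a ratio can give is 0.333.

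The 3 scaffold genes did not move as a group. Eef1e1, which encodes the smallest scaffold protein, fell, with 40.02 and 40.6 CPM in Mtss1 overexpression libraries, against 51.9 and 50.4 CPM in hygro control libraries (log2 fold change -0.34 ± 0.06 SE, limma adjusted p = 4.0e-05). Aimp1, a scaffold that can also be secreted as a cytokine precursor, had 107 and 106 CPM with Mtss1 overexpression and 108 and 106 CPM in hygro control libraries, with an interval of -0.10 to 0.08 on the log2 scale. Aimp2, on which the assembly of the complex depends, had 35.8 and 37.7 CPM with Mtss1 overexpression, against 31.0 and 33.1 CPM in hygro control libraries, a rise of 0.19 ± 0.07 (SE, limma adjusted p = 0.020). The rise of Aimp2 did not pass without Mtss1 overexpression 2 (limma adjusted p = 0.115) or without hygro control 1 (0.16), and 487 bases, 29.4% of its merged exons, are shared with Eif2ak1 on the opposite strand.

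Outside the complex, 13 enzymes serve the cytosol, counting Gars, and 11 of them fell, which is 84.6% against 34.2% of all tested genes. Wars, the tryptophanyl-tRNA synthetase gene (ENSMUSG00000021266, chromosome 12, 108860030 to 108894174, minus strand), had the largest fall among the 39 genes. It had 90.1 and 92.4 CPM in Mtss1 overexpression libraries, against 193 and 187 CPM in hygro control libraries. The groups lay far apart, with a log2 fold change of -1.05 ± 0.04 (SE, limma adjusted p = 9.1e-16). Wars is also known as an interferon-inducible gene. Tars, for threonine (ENSMUSG00000022241, chromosome 15, 11382301 to 11399665, minus strand), had 182 and 196 CPM with Mtss1 overexpression, against 375 and 363 CPM in hygro control libraries, and fell by 0.96 ± 0.04 on the log2 scale (limma adjusted p = 1.8e-15). Its paralogue Tarsl2, a second cytosolic threonyl-tRNA synthetase, had 22.1 and 19.2 CPM with Mtss1 overexpression and 16.7 and 18.6 CPM in hygro control libraries. The higher values of Tarsl2 did not pass the test (log2 fold change 0.21 ± 0.10, limma adjusted p = 0.057), but did without Mtss1 overexpression 2 (0.021), without hygro control 2 (0.028) and under 4 of the other settings. The CPM of Tars was 8.24 and 10.2 times that of Tarsl2 in Mtss1 overexpression libraries, against 22.5 and 19.5 times in hygro control libraries, and the counting could have divided reads between such paralogues. Tarsl2 also shares 120 exon bases with Tm2d3 on the same strand.

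Nars, the asparaginyl-tRNA synthetase gene, had 557 and 554 CPM in Mtss1 overexpression libraries, against 927 and 880.2 CPM in hygro control libraries, and fell by 0.70 ± 0.03 on the log2 scale (limma adjusted p = 3.9e-14). Aars, for alanine, had 486 and 483 CPM with Mtss1 overexpression, against 691 and 704 CPM in hygro control libraries, and Gars, the glycyl-tRNA synthetase of both compartments, had 416 and 428 against 618 and 615 CPM. These 2 genes fell by nearly the same amount, 0.52 ± 0.03 and 0.55 ± 0.03 on the log2 scale (SE, limma adjusted p = 3.3e-12 for Aars and 2.2e-12 for Gars). The merged exons of Aars include 1326 bases of Exosc6 on the same strand, and Exosc6 was listed at 0 in all 4 libraries. Cars (cysteine), Sars (serine), Hars (histidine) and Yars (tyrosine) fell by less, with log2 fold changes of -0.40, -0.29, -0.26 and -0.19 and limma adjusted p-values of 3.3e-09, 9.0e-08, 2.5e-05 and 4.6e-04.

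Vars, the valyl-tRNA synthetase gene, whose enzyme binds elongation factor EF1, had 270.0 and 267 CPM in Mtss1 overexpression libraries, against 276 and 299 CPM in hygro control libraries. Its log2 fold change of -0.10 ± 0.04 passed (limma adjusted p = 0.033), with no overlap but a narrow gap. The call was lost without Mtss1 overexpression 1 (limma adjusted p = 0.068), without Mtss1 overexpression 2 (0.12) and without hygro control 2 (0.48), where the log2 fold change was -0.04.

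Phenylalanyl-tRNA synthetase is built from a catalytic alpha subunit, the product of Farsa, and a beta subunit, the product of Farsb, in equal numbers. Farsb had 81.6 and 75.3 CPM in Mtss1 overexpression libraries, against 126 and 126 CPM in hygro control libraries, and fell by 0.67 ± 0.05 on the log2 scale (limma adjusted p = 2.7e-11). Farsa had 82.8 and 82.8 CPM with Mtss1 overexpression, against 89.7 and 87.4 CPM in hygro control libraries, and did not pass the test (log2 fold change -0.10 ± 0.05, limma adjusted p = 0.075). The CPM of Farsb was 0.986 and 0.909 times that of Farsa in Mtss1 overexpression libraries, against 1.40 and 1.44 times in hygro control libraries. The 2 groups did not overlap in this ratio, and the difference itself could not pass an exact permutation test at this size.

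**Figure D2:**
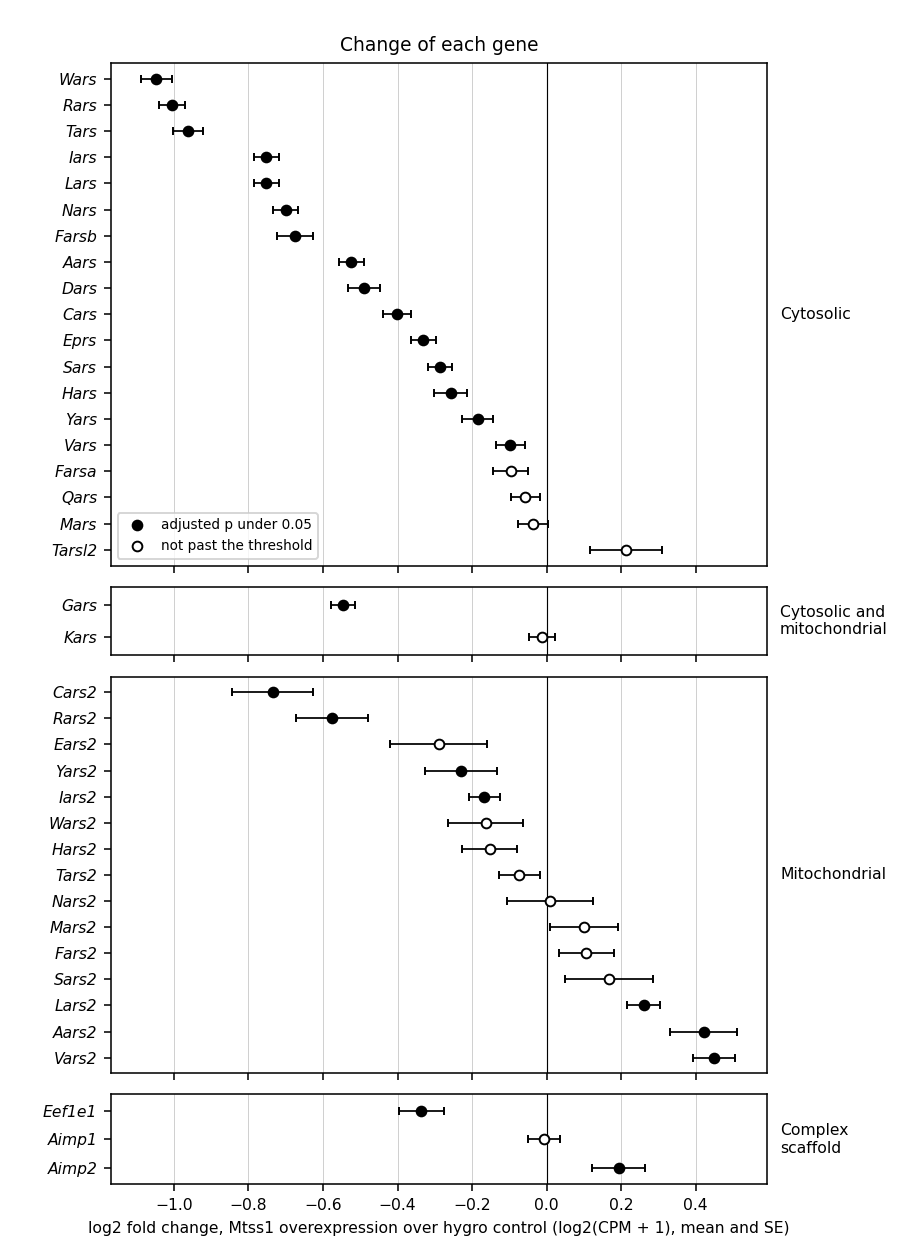
Log2 fold change of each of the 39 genes on the log2(CPM + 1) scale, Mtss1 overexpression over hygro control, with its standard error, filled where the limma adjusted p was under 0.05. Cytosolic genes reach from -1.05 (Wars) to 0.21 (Tarsl2), and mitochondrial genes from -0.73 (Cars2) to 0.45 (Vars2).

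Mitochondrial synthetase genes included both falls and rises. Cars2, for cysteine (ENSMUSG00000056228, chromosome 8, 11513977 to 11550783, minus strand), had 9.52 and 10.6 CPM in Mtss1 overexpression libraries, against 16.6 and 18.2 CPM in hygro control libraries. Its merged exons share 422 bases, 5.83%, with Naxd on the opposite strand, and Naxd reached 50.2 CPM. Reads of that stretch may belong to either gene if strand was not used. Rars2, for arginine, had 13.2 and 13.2 CPM with Mtss1 overexpression, against 20.3 and 20.1 CPM in hygro control libraries. Both groups of libraries stood clear of each other, and the log2 fold changes were -0.73 ± 0.11 for Cars2 and -0.58 ± 0.10 for Rars2 (SE, limma adjusted p = 3.4e-06 and 1.7e-05). Iars2, for isoleucine, had 133 and 140 CPM with Mtss1 overexpression, against 152 and 154 CPM in hygro control libraries, and fell by 0.17 ± 0.04 (limma adjusted p = 0.0012). Of its merged exons 22.9% are shared with Rab3gap2 on the opposite strand. Yars2, for tyrosine, had 15.5 and 16.2 CPM with Mtss1 overexpression, against 19.7 and 17.8 CPM in hygro control libraries, a fall of 0.23 ± 0.10 (limma adjusted p = 0.041). That call was lost without Mtss1 overexpression 1 (limma adjusted p = 0.14), without Mtss1 overexpression 2 (0.056) and without hygro control 1 (0.28).

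Vars2, for valine (ENSMUSG00000038838, chromosome 17, 35655634 to 35667592, minus strand), had 61.0 and 60.5 CPM in Mtss1 overexpression libraries, against 43.4 and 45.01 CPM in hygro control libraries. Aars2, for alanine, had 25.0 and 22.5 CPM with Mtss1 overexpression, against 17.5 and 17.4 CPM in hygro control libraries. Lars2, for leucine, had 118 and 121 CPM with Mtss1 overexpression, against 99.7 and 99.5 CPM in hygro control libraries. In these 3 genes both overexpression libraries lay above both controls, and the rises were 0.45 ± 0.06, 0.42 ± 0.09 and 0.26 ± 0.04 on the log2 scale (SE, limma adjusted p = 3.7e-07, 2.8e-04 and 1.7e-05). For valine, alanine and leucine the cytosolic gene therefore moved the other way from its mitochondrial counterpart, with log2 fold changes of -0.10 for Vars, -0.52 for Aars and -0.75 for Lars. The fall of Vars was small, and its call was lost under median-of-ratios scaling and with equal library sums.

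The other 8 mitochondrial genes did not pass. Ears2, for glutamate, had 6.30 and 6.67 CPM with Mtss1 overexpression, against 7.84 and 8.47 CPM in hygro control libraries (log2 fold change -0.29, limma adjusted p = 0.055). For Wars2, Hars2 and Tars2 the log2 fold changes lay between -0.16 and -0.07, and for Nars2, Mars2, Fars2 and Sars2 between 0.01 and 0.17. Without Mtss1 overexpression 2, Hars2 (log2 fold change -0.20, limma adjusted p = 0.048) and Wars2 (-0.27, 0.045) passed. Hars and Hars2 lie head to head with 195 shared exon bases on opposite strands, so reads of that stretch may belong to either gene if strand was not used.

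A mitochondrial enzyme with a separate cytosolic counterpart allows a ratio within a library, which no scaling between libraries changes. The ratios taken were 15 over 14 amino acids, since the 2 cytosolic phenylalanyl subunits share 1 mitochondrial enzyme. No ratio was taken for Ears2, whose cytosolic counterpart is the fused Eprs, or for Tarsl2 over Tars2. Eprs and Ears2 had close log2 fold changes, -0.33 and -0.29, unlike most of the pairs below. The ratio of CPM, cytosolic over mitochondrial, was lower with Mtss1 overexpression in both libraries than in both controls for 13 of the 15, higher for 1 (cysteine) and overlapping for 1 (tyrosine). Separation by itself was common for the CPM of single genes, as 41.9% of all tested genes lay lower and 39.7% higher with no overlap. No such share was computed for ratios of 2 genes. The 13 ratios include differences as small as -0.10 for histidine and -0.14 for methionine on the log2 scale. For leucine the log2 ratio of Lars to Lars2 was 1.39 and 1.33 in Mtss1 overexpression libraries, against 2.40 and 2.35 in hygro control libraries. For alanine, Aars to Aars2, it was 4.28 and 4.42 with Mtss1 overexpression, against 5.30 and 5.34 in hygro control libraries. These were the widest differences, -1.02 for leucine and -0.97 for alanine. For cysteine, Cars to Cars2, the log2 ratio was 4.49 and 4.26 with Mtss1 overexpression, against 4.06 and 3.91 in hygro control libraries, as Cars2 fell more than Cars. The median difference over the 15 ratios was -0.56 on the log2 scale, and the differences in these ratios were not tested.

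**Figure D3:**
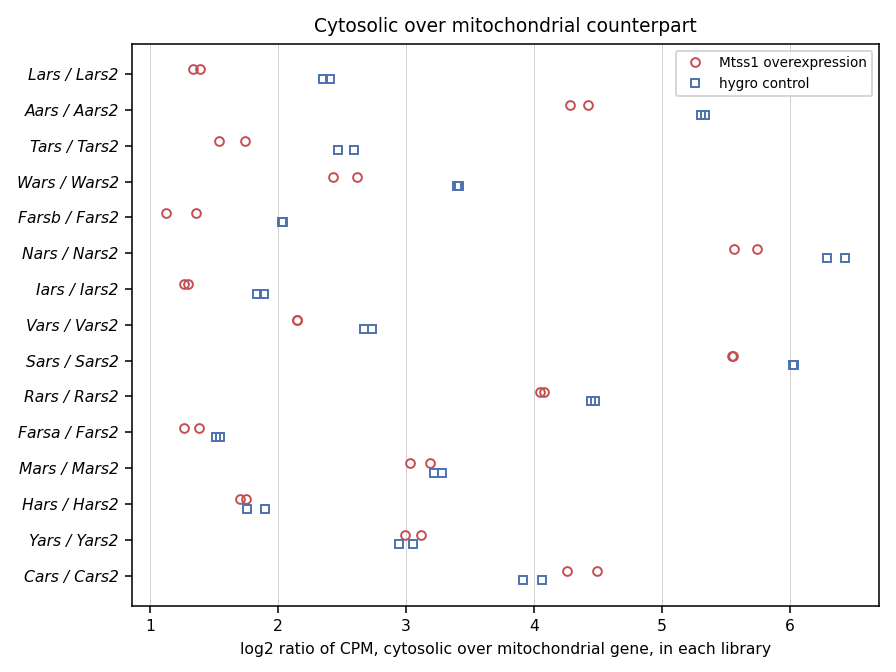
Log2 ratio of CPM of cytosolic synthetase genes to their mitochondrial counterparts in each library, for the 15 ratios taken, without Eprs over Ears2. Mtss1 overexpression libraries are circles and hygro control libraries squares, ordered by the difference between groups. The circles lie left of the squares for 13 of the 15 ratios, right of them for Cars over Cars2, and among them for Yars over Yars2.

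Summed over its members, each class changed by a different amount. The 19 cytosolic enzymes summed to 4415 and 4435 CPM in Mtss1 overexpression libraries, against 6416 and 6332 CPM in hygro control libraries, a ratio of means of 0.694. The 8 complex enzymes (0.710) and the 13 free cytosolic enzymes (0.703) had close ratios. The 15 mitochondrial enzymes summed to 561 and 574 CPM with Mtss1 overexpression and 559 and 568 CPM in hygro control libraries, with overlapping groups and a ratio of means of 1.01. As a share of all reads, the 39 genes took 0.5985% and 0.5983% in Mtss1 overexpression libraries, against 0.8017% and 0.7886% in hygro control libraries. These sums weigh genes by their level and length.

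**Figure D4:**
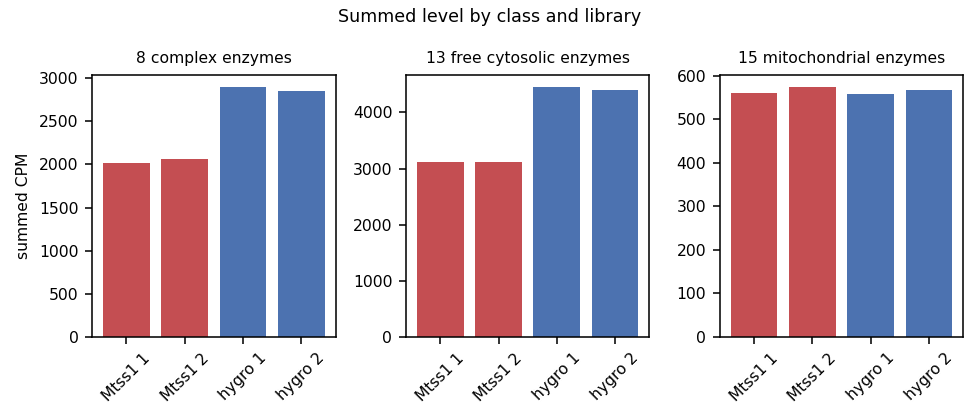
Summed CPM of the complex enzymes, the free cytosolic enzymes and the mitochondrial enzymes in each library, with Mtss1 overexpression libraries left of hygro control libraries and axes from 0. Kars and Gars, which serve both compartments, are counted with the complex and the free enzymes.

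Per kilobase of merged exons, cytosolic synthetase genes stood above mitochondrial ones in both groups. The median level over the 19 cytosolic genes was 32.0 CPM per kilobase in Mtss1 overexpression and 51.2 in hygro control cells, and over the 15 mitochondrial genes 4.98 and 5.34. Tarsl2 was the exception in the cytosol, with 3.06 ± 0.30 CPM per kilobase in Mtss1 overexpression and 2.62 ± 0.21 in hygro control cells (SD, n = 2 each). The highest levels were those of Nars, with 128 ± 0.38 CPM per kilobase in Mtss1 overexpression, against 207 ± 7.59 in hygro control cells, and Gars, with 135 ± 2.85 against 198 ± 0.58 (SD, n = 2 each). Their order was uncertain, since Gars stood above Nars with Mtss1 overexpression on merged exons but under it, at 177 against 202, per kilobase of the principal transcript. Levels between genes depend on the length used, since merged exons include rare exons. On the principal transcript, a length chosen after the merged lengths were seen, the cytosolic medians were 58.1 in Mtss1 overexpression and 85.5 in hygro control cells, and the mitochondrial ones 7.09 and 9.99. For either class and either length, the medians of the 2 groups fall on different genes, so their gap does not measure a change of the class. On merged exons the cytosolic medians are Tars, at 62.5 in hygro control cells, and Mars, at 49.9 in Mtss1 overexpression. The mitochondrial ones there are Aars2, at 3.66 in hygro control cells, and Fars2, at 5.77 in Mtss1 overexpression. On the principal transcript the mitochondrial medians are Aars2, at 5.21 in hygro control cells, and Vars2, at 13.7 in Mtss1 overexpression.

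As background, 12 of the 21 genes that serve the cytosol are often listed as targets of ATF4 in mammals. Of these 11 fell and Mars did not pass, which is 91.7% lower against 34.2% of all tested genes, with a median log2 fold change of -0.54. Of the other 9, 5 fell (Rars, Farsb, Dars, Hars and Vars), or 55.6%, and 4 did not pass, with a median of -0.10. The list of targets was chosen with earlier results of these data known, so this split is not independent evidence. Rars, which is not on that list, fell as much as the list's own leaders Wars and Tars. Atf4 itself had 371 and 356 CPM in Mtss1 overexpression libraries, against 559 and 572 CPM in hygro control libraries, a fall of 0.63 ± 0.03 on the log2 scale (limma adjusted p = 2.9e-13). Eif2ak4, the gene of GCN2, had 63.4 and 70.0 CPM with Mtss1 overexpression and 61.6 and 62.4 CPM in hygro control libraries and did not pass (limma adjusted p = 0.11). These values measure RNA, whereas ATF4 is controlled largely by translation of its mRNA.

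The DNA element through which ATF4 and C/EBP proteins act on amino acid response genes has the core TGATGCAA, here searched on both strands of RefSeq promoters (build GRCm38.p6, 250 bases before to 50 after each start), together with the looser core TGATGNAA that includes it. Promoters were found for 31 of the 39 genes. The core occurred in 4 of these 31 genes, among them Tars, Iars and Yars, and the looser core also in Gars, where 0.895% and 3.97% of all 32851 promoters hold them. All 5 serve the cytosol, among 14 such genes with a promoter, and 0 of 14 mitochondrial genes held a match. At such low shares over all promoters, 0 of 14 does not set the mitochondrial genes apart from other genes. Stretches of 30 bases around 4 of the matches are shown to give the core in its surroundings, with the match in capitals on the gene's own strand, 5′ to 3′:
Tars, chr15:11399655-11399684, minus strand: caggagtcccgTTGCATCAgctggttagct
Iars, chr13:49682126-49682155, plus strand: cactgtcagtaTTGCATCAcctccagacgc
Yars, chr4:129189895-129189924, plus strand: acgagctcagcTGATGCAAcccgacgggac
Gars, chr6:55037960-55037989, plus strand: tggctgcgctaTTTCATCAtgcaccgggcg

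In Tars, Iars and Gars the core reads on the strand opposite to the gene, as TTGCATCA or TTTCATCA, and in Yars on the gene's strand. The first base of the match lies 30 bases before the start in Gars and 15 before it in Tars, and just after the start in Iars and Yars. These 4 genes had log2 fold changes of -0.96 (Tars), -0.75 (Iars), -0.55 (Gars) and -0.19 (Yars), so the matches span large and small falls. Farsb (-0.67) and Dars (-0.49) fell with no match of either core in these windows. The motif was chosen with the fold changes known, and a match is a description of letters, not a site shown to be bound. Cars, Hars, Hars2, Lars, Nars, Rars, Vars and Wars had no entry and were not examined.

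Genes on either side of the charging step included falls and rises. Of 14 further charging genes, 4 fell, 4 rose and 6 did not pass, which is 28.6% in each direction and close to the 34.2% lower and 31.9% higher of all tested genes, with a median log2 fold change of 0.01. Among those that fell were Gatb (-0.62 ± 0.12), Gatc (-0.36 ± 0.09) and Ptrh2 (-0.91 ± 0.09), a peptidyl-tRNA hydrolase. Gatb and Gatc encode subunits of the mitochondrial amidotransferase that completes glutaminyl-tRNA after Ears2. Qrsl1, for another subunit of that enzyme, lay higher with no overlap of the groups. It did not pass (log2 fold change 0.23 ± 0.11, limma adjusted p = 0.075). Pstk, a kinase on the route to selenocysteinyl-tRNA (0.51 ± 0.10), Dtd1, which removes D-amino acids from tRNA (0.42 ± 0.11), and Prorsd1 (0.33 ± 0.14) rose. Limma adjusted p-values of the 6 called genes named here were between 3.9e-09 for Ptrh2 and 0.037 for Prorsd1.

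Of 19 genes for tRNA processing and export, 9 fell, 3 rose and 7 did not pass, against 34.2% lower and 31.9% higher of all tested genes, with a median of -0.16. Xpot, which encodes the exporter of tRNA from the nucleus, had 109 and 111 CPM in Mtss1 overexpression libraries, against 197 and 201 CPM in hygro control libraries. It fell by 0.86 ± 0.04 on the log2 scale (limma adjusted p = 1.9e-14). Next to it were Trmu (-0.72 ± 0.13), whose enzyme adds sulfur to mitochondrial tRNA, and Trmt6 (-0.65 ± 0.08), a subunit of a tRNA methyltransferase. Trit1 (0.62 ± 0.09), Pus7 (0.44 ± 0.06) and Rpp30 (0.26 ± 0.11), which serve isopentenylation, pseudouridylation and 5′ end cleavage of RNA, rose. Of 9 elongation factor genes, 2 fell, 1 rose and 6 did not pass, against the same shares of all tested genes, with a median of 0.02. Eef1a1, whose protein takes charged tRNA to the ribosome, had 9629 and 9885 CPM in Mtss1 overexpression libraries and 10193 and 10095 CPM in hygro control libraries (log2 fold change -0.06 ± 0.04, limma adjusted p = 0.21). The mitochondrial factors Gfm2 (-0.30 ± 0.07) and Tsfm (-0.21 ± 0.09) fell and Gfm1 (0.30 ± 0.05) rose, with limma adjusted p-values of 4.1e-04, 0.0499 and 1.8e-05.

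Of 33 amino acid response genes 32 were tested, and 26 fell, 3 rose and 3 did not pass, against 34.2% lower and 31.9% higher of all tested genes, with a median of -0.64 on the log2 scale. The glycine transporter gene Slc6a9 had 34.6 and 33.7 CPM in Mtss1 overexpression libraries, against 112 and 116 CPM in hygro control libraries, and its log2 fold change of -1.71 ± 0.05 (limma adjusted p = 1.2e-17) stood beside those of the transcription factor gene Atf5 (-1.77) and the cysteine synthesis gene Cth (-1.76). The transcription factor genes Ddit3 (0.78 ± 0.04) and Atf3 (0.65 ± 0.11) and the proline synthesis gene Pycr1 (0.17 ± 0.06) rose (limma adjusted p = 2.0e-13, 1.3e-05 and 0.013). This list was drawn up with earlier results of these samples known, so its direction is not independent evidence.

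**Figure D5:**
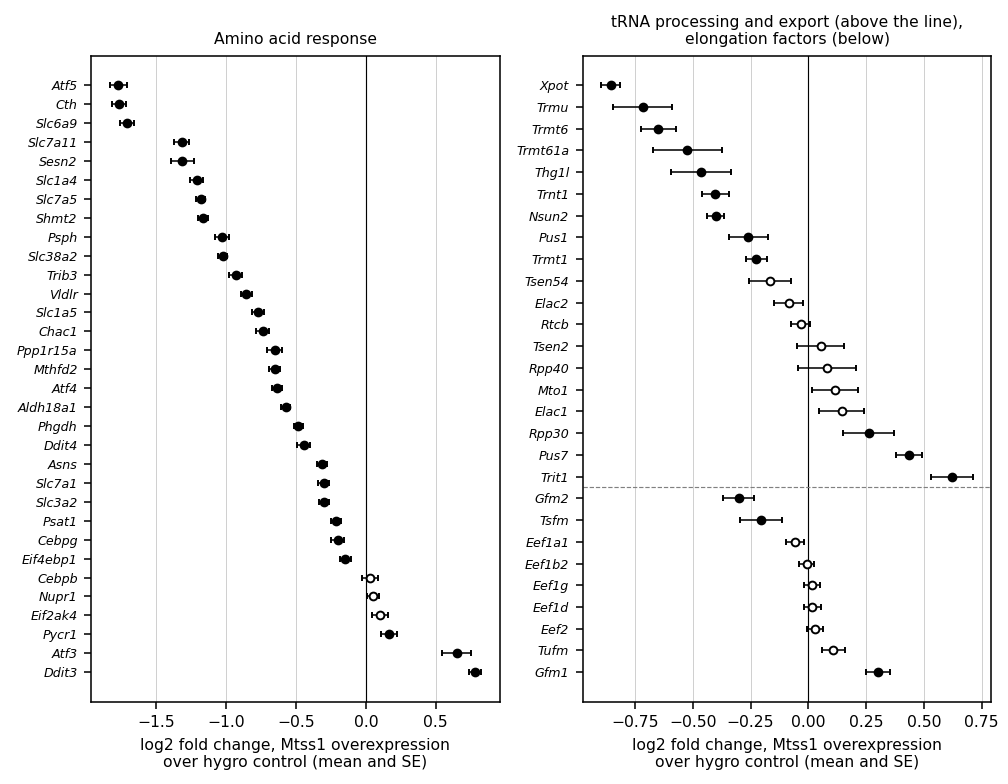
Log2 fold change with standard error on the log2(CPM + 1) scale, Mtss1 overexpression over hygro control, of amino acid response genes, tRNA processing and export genes and elongation factors, filled where the limma adjusted p was under 0.05. Amino acid response genes lie mostly left of 0, from -1.77 (Atf5) to 0.78 (Ddit3), whereas the cytosolic elongation factors lie close to 0.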

How the data were processed

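The authors deposited 1 table with a CPM column per library, and all 4 columns were used. The submitters' processing notes name FastQC (0.11.2), STAR, RSEM and mm10 without their roles, and aligner settings are not given in the sources used here. Trimmed-mean (TMM) factors computed from recovered reads equalled those carried by the deposited CPM to 6 digits. Values were multiples of 0.01 read, and 79.6% to 80.5% of nonzero ones were whole within 0.005 read, so they were not treated as whole counts. Replicates differed by more than Poisson noise (median chi-square 1.81 times the median under Poisson noise for Mtss1 overexpression and 2.02 times for hygro control), so each library was 1 sample.

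Genes reaching 1 CPM in 2 or more libraries (12510) were fitted with limma 3.58.1 in R 4.3.3 on log2(CPM + 1), with a trend in the prior variance and 2 residual degrees of freedom. Benjamini-Hochberg adjustment ran over all of them, at 0.05. The fit was tested on simulated data. Coordinates and lengths came from GENCODE M21 (mm10), which matched all 39 members, and promoters from RefSeq. The promoter match of 1 member and 1 marker gene are not reported here. Members, lists and the motif were chosen with earlier results of these data known. Outside the members, the 3 largest calls in each direction of each list are named, with Atf4, and Mtss1 as a check of the labels. Eif2ak4, Eef1a1 and Qrsl1 were chosen after their values were seen. Alternatives were limma-voom on recovered counts, other scalings, filters and pseudocounts, a replicate block, a threshold of 0.01, and the fit without each library in turn.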

Additional observations from a re-analysis of the deposited data

How the results depend on the processing

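Across 13 alternative settings the members called lower numbered 19 to 22 (21 as reported) and those called higher 3 to 5 (4 as reported). Of the 39 genes 32 kept their side of the threshold in every setting, and 0 called genes changed sign. The exceptions were Vars and Yars2 (lost in 7 settings each), Aimp2 (lost in 3), Tarsl2 (gained in 6) and Ears2, Hars2 and Wars2 (gained in 1 each, for Ears2 the pseudocount of 5). Vars and Yars2 were lost under median-of-ratios scaling, equal library sums, no filter and an adjusted p of 0.01, besides the libraries named with them. The median log2 fold change lay between -0.44 and -0.36 for the cytosolic and between -0.11 and -0.03 for the mitochondrial enzymes. The median of the 3 scaffold genes, -0.0062, had no stable sign: it was 0.0053 under median-of-ratios scaling and 0.031 with equal library sums, and without 1 library it ran from -0.020 to 0.0072. Equal library sums moved the median of all genes to 0.02. Where a library was left out, the lone library of its group was assumed to vary as the other group did. Kars, Mars, Aimp1 and Nars2, none of them called, had either sign across settings.

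Same-numbered libraries share only a number (correlation of their deviations -0.02). With the replicate number as a block, 5 members were higher and 21 lower, and 8377 of all genes passed, against 8273 without it. Among the 39 genes the largest standard error on the log2 scale was 0.13, for Ears2, which also had the fewest reads.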
